A study of Mus musculus with 7 samples.

Results

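Ionocyte mimetic genes are 8 genes of ion-transporting epithelium that were read in medullary thymic epithelial cells (mTECs): the transcription factor genes Foxi1, Foxi2 and Ascl3, the channel genes Cftr and Bsnd, and the proton pump genes Atp6v1b1, Atp6v1g3 and Atp6v0d2. They were chosen by symbol, and all 8 were found among the 55536 genes of the deposited table. RNA came from freshly sorted EPCAM+ mTECs of mouse thymus and was sequenced by SMART-seq, in which whole transcripts of few cells are copied. The 3 Cre-positive libraries (45, 76 and 80, by the number in their label) have the genotype Cre(+) Ikzf1fl/fl Pou2f3-/-, and the 4 Cre-negative libraries (46, 48, 75 and 77) the genotype Cre(-) Ikzf1fl/fl Pou2f3-/-. By label both groups are null for Pou2f3, the factor that tuft cells need, and have both copies of Ikzf1, which encodes the transcription factor Ikaros, floxed, so that Cre can remove part of the gene. The sources used here do not give the Cre driver, the floxed exon, the age or the number of animals per library. Nothing in the labels ties each library to its own animal, and p-values therefore reflect library spread that may be technical in part. The comparison asks how expression differs with Cre among Pou2f3-/- samples.

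Ionocytes are rare epithelial cells that move protons, chloride and bicarbonate. They occur in the airway, and the intercalated cells of the kidney, cells of the inner ear and clear cells of the epididymis carry a related programme. In mice Foxi1 is required for such cells, which use it to switch on subunits of the vacuolar proton pump (V-ATPase). Some mTECs, called mimetic cells, take on programmes of peripheral cell types, the ionocyte programme among them, and so display its proteins to developing T cells.

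Whole reads were recovered from the deposited normalized counts and totalled 11383465 to 11623062 per Cre-positive library and 9815958 to 12599078 per Cre-negative library. Genes with at least 10 reads numbered 17169 to 18014 in Cre-positive and 19417 to 20467 in Cre-negative libraries. The mTEC genes Epcam and Aire were read in every library, Epcam at 5597.9 to 6771.2 normalized counts in Cre-positive and 3882.7 to 5098.5 in Cre-negative libraries, and Aire at 2689.8 to 3297.9 in Cre-positive and 3694.0 to 5435.7 in Cre-negative libraries. Aire was called lower (-0.56, limma adjusted p = 0.0395), a call lost in fits leaving out Cre-negative 75, Cre-negative 77, Cre-positive 45 or Cre-positive 76 (0.0921 to 0.133). Ikzf1 had 1310.3, 1828.6 and 1677.5 normalized counts in Cre-positive 45, 76 and 80, against 1118.7, 1149.5, 1146.8 and 1219.0 in Cre-negative 46, 48, 75 and 77, so that every Cre-positive library was the higher, and it was not called (log2 fold change 0.46, limma adjusted p = 0.0916). Pou2f3 had 17.8, 0 and 4.2 in Cre-positive and 17.6, 19.7, 1.8 and 27.9 in Cre-negative libraries, and was not called (-1.53, adjusted p = 0.413). Both values are sums over a whole gene, so they check neither the floxed exon nor the null allele. Cre-negative 48 was the library with reads of the Y-linked genes Ddx3y, Eif2s3y, Kdm5d and Uty, at a mean log2 level of 9.49, where the other 6 libraries had at most 0.25. Sex and this library cannot be told apart.

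The level of most ionocyte genes was low and none of the 8 passed the test between the genotypes. All 8 passed the filter of a mean of at least 5 normalized counts. Foxi2 and Bsnd had Cre-positive means of 4.0, under 5, and passed it through Cre-negative means of 24.05 and 14.6. Ascl3 had a Cre-negative mean of 4.6 and passed through a Cre-positive mean of 48.5. For these genes the direction of change was in part set by the filter, which bears on the counts by direction below. The test was limma on log2(normalized count + 1) over 22878 genes, with a gene called at a Benjamini-Hochberg adjusted p under 0.05, and it called 0 of the 8, where it called 13.8% of all genes tested. At an unadjusted p under 0.05 limma gave 3 of the 8, Foxi1, Foxi2 and Atp6v0d2, all lower in Cre-positive libraries, where 28.4% of all genes tested passed in either direction and 17.3% lower. On the recovered reads edgeR called 0 of the 7 it tested (3 at an unadjusted p under 0.05), and DESeq2 called 2 of 8, Foxi1 and Atp6v0d2 (3 at an unadjusted p under 0.05), both lower in Cre-positive libraries. In either direction edgeR called 13.7% of the genes it tested and DESeq2 17.8%, and in the lower direction 8.68% and 11.7%. In the fit 6 members lay below 0 and 2, Ascl3 and Cftr, above. The members' median log2 fold change was -1.39. That of all genes tested was -0.10, and that of genes with a mean in the range of the members' means was -0.18. Library total scaling moved the median of all genes by -0.20. For 3 members, Foxi1, Foxi2 and Atp6v1b1, every Cre-positive library was below every Cre-negative library, as for 14.5% of all genes tested and 16.7% of genes with a mean between 10.1 and 295.5 normalized counts, the range of the members' means. In a bulk sample, fewer ionocyte-like cells and less RNA per such cell cannot be told apart.

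**Figure D1:**
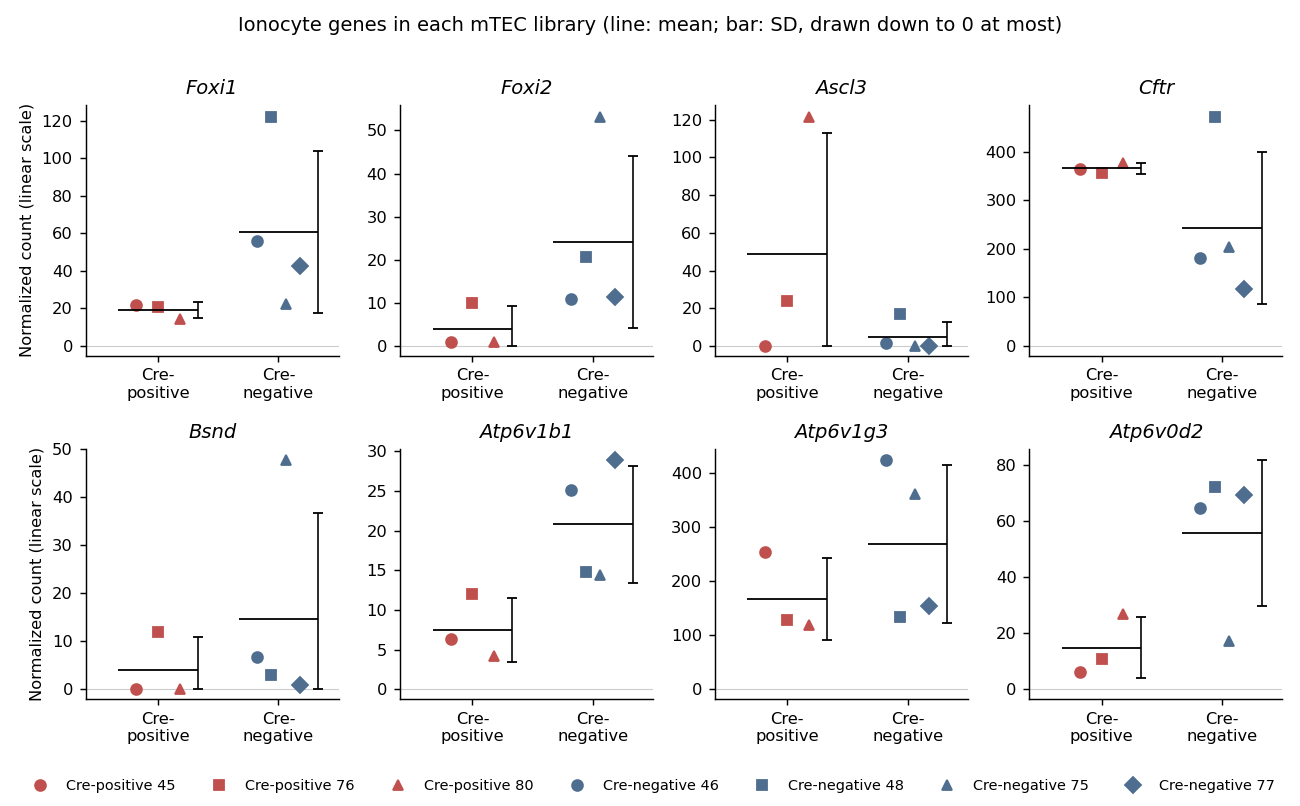
Normalized counts (vertical axis, linear, a scale of its own for each gene) of the 8 ionocyte genes in the 3 Cre-positive and 4 Cre-negative libraries; each symbol is a library, the line is the group mean and the bar 1 SD. Foxi1, Foxi2 and Atp6v1b1 do not overlap between the groups, and the highest library differs from gene to gene.

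Foxi1, the forkhead factor that directs the ionocyte programme, had few reads in every library. The gene lies on GRCm38 chromosome 11 (ENSMUSG00000047861, 34204338 to 34208089). Foxi1 had 21.9, 21.0 and 14.5 normalized counts in Cre-positive 45, 76 and 80, against 56.1, 122.1, 22.5 and 42.4 in Cre-negative 46, 48, 75 and 77. The Cre-positive values lie close together just below the lowest Cre-negative value, that of 75, and Cre-negative 48 is the highest by far. The log2 fold change was -1.38 (SE 0.61, 95% interval -2.7 to -0.07), and the gene was not called (adjusted p = 0.155). DESeq2 on the recovered reads called it (-1.66, adjusted p = 0.0441). The authors' deposited table holds the same log2 fold change with its sign turned (adjusted p = 0.0382), so it is not a second test. Without Cre-negative 48 the limma log2 fold change was -0.97 (adjusted p = 0.369), and with a term for Y-linked expression it was -0.92 (adjusted p = 0.371). The promoter of Foxi1 and those of Atp6v1b1, Atp6v1g3 and Cftr are shown because they set the factor beside genes of pumps and a channel that ionocytes express. Each is the 250 bases before and the 50 bases after the gene's start, as RefSeq gives it on GRCm38.p6, 5' to 3' on the gene's strand. Capitals mark TGTTT, a core of forkhead binding motifs, or its reverse complement AAACA, and the longer TGTTTAC where it occurs, which contains TGTTT.
Foxi1 (chr11:34208040-34208339, minus strand): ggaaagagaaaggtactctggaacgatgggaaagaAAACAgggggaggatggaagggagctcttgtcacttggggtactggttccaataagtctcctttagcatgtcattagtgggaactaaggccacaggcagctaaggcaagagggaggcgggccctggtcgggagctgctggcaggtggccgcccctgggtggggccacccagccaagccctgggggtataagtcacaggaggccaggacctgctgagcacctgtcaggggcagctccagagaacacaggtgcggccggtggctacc
Atp6v1b1 (chr6:83742767-83743066, plus strand): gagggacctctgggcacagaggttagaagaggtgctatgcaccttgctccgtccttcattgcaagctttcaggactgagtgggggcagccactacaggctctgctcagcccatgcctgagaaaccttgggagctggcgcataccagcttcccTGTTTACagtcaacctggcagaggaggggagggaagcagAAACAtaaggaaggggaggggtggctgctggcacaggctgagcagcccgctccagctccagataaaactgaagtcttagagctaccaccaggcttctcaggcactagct
Atp6v1g3 (chr1:138273488-138273787, plus strand): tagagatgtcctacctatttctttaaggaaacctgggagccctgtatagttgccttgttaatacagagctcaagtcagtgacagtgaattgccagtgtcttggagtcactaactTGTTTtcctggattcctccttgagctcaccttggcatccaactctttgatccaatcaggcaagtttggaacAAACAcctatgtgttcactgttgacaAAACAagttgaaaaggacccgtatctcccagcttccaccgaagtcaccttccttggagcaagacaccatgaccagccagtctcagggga
Cftr (chr6:18170437-18170736, plus strand): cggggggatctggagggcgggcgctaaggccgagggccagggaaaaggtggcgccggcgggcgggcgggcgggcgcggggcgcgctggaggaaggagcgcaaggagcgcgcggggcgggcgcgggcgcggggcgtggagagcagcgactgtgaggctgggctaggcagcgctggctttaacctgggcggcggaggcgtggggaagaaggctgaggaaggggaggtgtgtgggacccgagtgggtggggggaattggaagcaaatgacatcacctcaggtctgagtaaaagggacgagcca

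Promoters were matched for 6 of the 8 genes, Atp6v0d2 and Bsnd being the others. TGTTT on either strand was found in 5 of these 6 and in 50.5% of the 32851 promoters of this length. It occurred 3 times in Ascl3 and Atp6v1g3, 2 times in Atp6v1b1, 1 time in Foxi1 and Foxi2, and 0 times in Cftr. TGTTTAC, searched on both strands, was found in 1 of the 6, that of Atp6v1b1, where it begins 98 bases before the gene's start, and in 3.65% of all promoters. These matches describe letters and not bound sites.

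Foxi2 and Ascl3 differed strongly among libraries of a single genotype. Foxi2, a forkhead gene of the same family, lies on chromosome 7 (ENSMUSG00000048377, 135410308 to 135413622). It had 1.0, 10.0 and 1.0 normalized counts in Cre-positive 45, 76 and 80, against 10.9, 20.7, 53.2 and 11.4 in Cre-negative 46, 48, 75 and 77. The groups do not overlap, but Cre-positive 76 comes close to the lowest Cre-negative library. The log2 fold change was -2.53 (SE 0.93, 95% interval -4.53 to -0.53), which limma did not call (adjusted p = 0.0901); leaving out Cre-positive 76 gave -3.35 and a call (adjusted p = 0.0485). Ascl3, a basic helix-loop-helix factor gene that marks salivary duct cells and airway ionocytes in mice, lies on chromosome 7 (ENSMUSG00000035951, 109727465 to 109731726). It had 0, 24.0 and 121.5 normalized counts in Cre-positive 45, 76 and 80, against 1.7, 16.7, 0 and 0 in Cre-negative 46, 48, 75 and 77. A count of 0 allows up to 3 reads, which is 3.13 normalized counts in Cre-positive 45, and this limit covers counting error only. The groups overlap, and most Ascl3 reads came from Cre-positive 80. The log2 fold change of 2.47 (SE 1.53, 95% interval -0.85 to 5.78) was not called (adjusted p = 0.321), and it was 0.93 without Cre-positive 80 and 4.4 without Cre-positive 45.

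Cftr, the chloride and bicarbonate channel, had the highest mean count of the 8 genes over all 7 libraries, and its fitted change was upward. It lies on chromosome 6 (ENSMUSG00000041301, 18170687 to 18322768). Cftr had 363.6, 355.5 and 376.8 normalized counts in Cre-positive 45, 76 and 80, against 180.2, 471.8, 203.6 and 116.8 in Cre-negative 46, 48, 75 and 77. The 3 Cre-positive libraries were nearly equal and stood above 3 of the 4 Cre-negative libraries, and Cre-negative 48 was above them all. The log2 fold change was 0.78 (SE 0.38, 95% interval -0.03 to 1.6) and was not called (adjusted p = 0.195). It was 1.16 and called without Cre-negative 48 (adjusted p = 0.0234), and 1.2 with a term for Y-linked expression (adjusted p = 0.0219), a term that sets this library apart. With all 7 libraries neither edgeR (0.59, adjusted p = 0.370) nor DESeq2 (0.59, adjusted p = 0.364) called it, and the authors' deposited table gives no adjusted p for it. The gene overlaps Gm15592 on the opposite and Gm15595 on the same strand, and no source used here states how the counting treated strand.

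Bsnd encodes barttin, an accessory subunit of chloride channels that kidney and inner ear epithelia use. Its place is chromosome 4 (ENSMUSG00000025418, 106483456 to 106492283). Bsnd had 0, 12.0 and 0 normalized counts in Cre-positive 45, 76 and 80, against 6.7, 3.0, 47.7 and 1.0 in Cre-negative 46, 48, 75 and 77. Most of its reads came from Cre-negative 75, and the groups overlap. The log2 fold change was -1.65 (SE 1.31, 95% interval -4.48 to 1.17; adjusted p = 0.445), and edgeR left the gene out as too low. Leaving out Cre-positive 76 gave -2.89, leaving out Cre-positive 45 or 80 gave -1.04, and a pseudocount of 4 gave -0.89.

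The pump genes of the group encode V-ATPase subunits with restricted expression. Each of them has a form that most cells use. Atp6v1b1 encodes the B1 subunit of the part of the pump that splits ATP and lies on chromosome 6 (ENSMUSG00000006269, 83742990 to 83758855). It had 6.3, 12.0 and 4.2 normalized counts in Cre-positive 45, 76 and 80, against 25.1, 14.8, 14.4 and 28.9 in Cre-negative 46, 48, 75 and 77. The groups do not overlap, at a log2 fold change of -1.40 (SE 0.71, 95% interval -2.95 to 0.14; adjusted p = 0.22). Atp6v1g3, which encodes the G3 subunit of the stalk and is known from kidney, lies on chromosome 1 (ENSMUSG00000026394, 138273738 to 138289462). It had 253.9, 128.2 and 118.3 normalized counts in Cre-positive 45, 76 and 80, against 424.0, 134.0, 362.1 and 155.1 in Cre-negative 46, 48, 75 and 77. The ranges overlap, since Cre-negative 48 and 77 lie among the Cre-positive values, and the log2 fold change was -0.60 (SE 0.43, 95% interval -1.53 to 0.33; adjusted p = 0.396). Leaving out 1 library gave -0.94 without Cre-positive 45, -0.40 without Cre-positive 80 or Cre-negative 75, and -0.32 without Cre-negative 46.

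Atp6v0d2 encodes the d2 subunit, which links the membrane part of the pump to the rest and is also abundant in osteoclasts. The gene is on chromosome 4 (ENSMUSG00000028238, 19876841 to 19922605). Atp6v0d2 had 6.3, 11.0 and 27.0 normalized counts in Cre-positive 45, 76 and 80, against 64.5, 71.9, 17.1 and 69.3 in Cre-negative 46, 48, 75 and 77. Cre-negative 75 lies among the Cre-positive libraries, and the other 3 Cre-negative libraries lie above all of them. The log2 fold change was -1.88 (SE 0.69, 95% interval -3.38 to -0.38) and was not called (adjusted p = 0.0924). Without Cre-negative 75 it was -2.37 and called (limma adjusted p = 0.0370), and DESeq2 called it with all libraries (-1.92, adjusted p = 0.0309). The authors' deposited table holds the same DESeq2 log2 fold change with its sign turned (adjusted p = 0.0267), so it adds no second test. Macrophages and osteoclasts also use Atp6v0d2, and of 8 tested markers of these cells 2 were lower in Cre-positive libraries, Adgre1 (-2.91, adjusted p = 8.2e-04) and Itgam (-2.30, adjusted p = 0.00531), and 1, Lyz2, was higher (0.66, adjusted p = 0.0328), a call lost with library total scaling (0.0930), with the term for Y-linked expression (0.0777) and in fits leaving out Cre-negative 46, Cre-negative 48, Cre-negative 77 or Cre-positive 80 (0.0650 to 0.128). Over all genes tested limma called 9.11% lower and 4.66% higher. The 9 macrophage and osteoclast markers summed to 7241.2 to 11567.8 normalized counts in Cre-positive and 5324.9 to 6795.2 in Cre-negative libraries, with Lyz2 as 91.3% of the sum. The osteoclast markers Dcstamp and Ocstamp had means of 5.10 and 1.67 normalized counts in Cre-positive and 23.7 and 2.08 in Cre-negative libraries, that of Dcstamp being 11.6 without Cre-negative 77. The part of such cells in the Atp6v0d2 values was not tested.

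**Figure D2:**
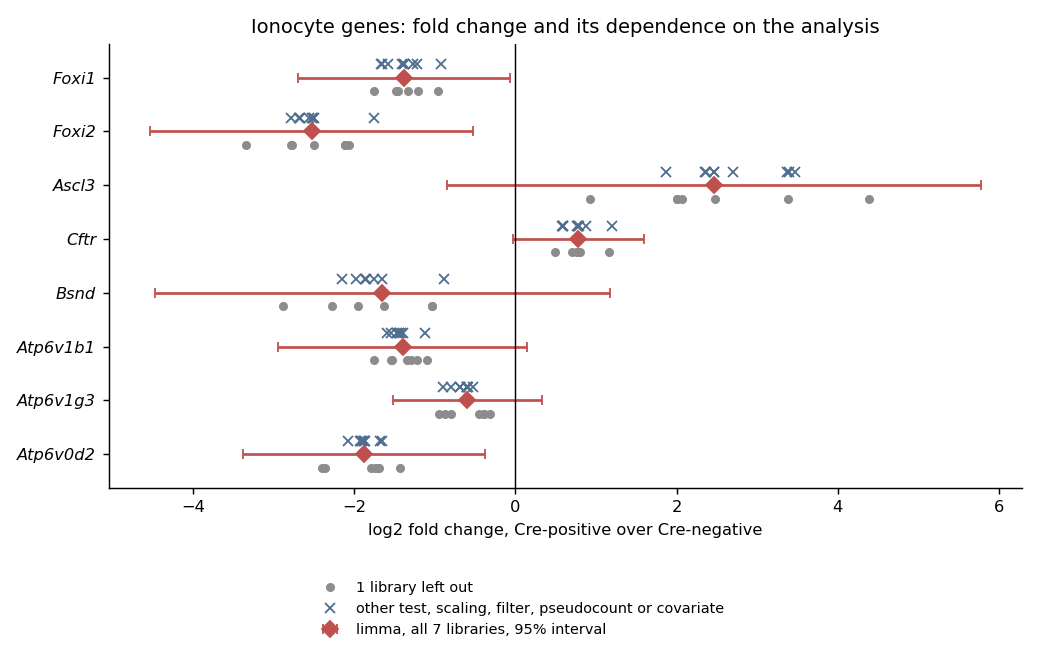
log2 fold change of each of the 8 ionocyte genes, Cre-positive over Cre-negative (horizontal axis): the diamond and bar are the limma estimate with its 95% interval over all 7 libraries, grey points the values with 1 library left out, and crosses the other tests, scalings, filters, pseudocounts and covariates. No gene changes sign, and the intervals of Foxi1, Foxi2 and Atp6v0d2, which are not adjusted for the number of genes tested, end below 0.

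Beside its ubiquitous counterpart each restricted subunit was a small part of the pump's message in these cells. Per kilobase of exon, Atp6v1b1 made up 1.15% ± 0.45 of the B subunit transcripts in Cre-positive libraries (SD, n = 3) and 2.41% ± 1.05 in Cre-negative libraries (SD, n = 4), the rest being Atp6v1b2. Atp6v1g3 made up 5.81% ± 2.01 of the G subunit transcripts in Cre-positive and 8.72% ± 3.96 in Cre-negative libraries, beside Atp6v1g1 and the neuronal form Atp6v1g2. Atp6v0d2 made up 1.51% ± 0.32 of the d subunit transcripts in Cre-positive and 5.43% ± 2.76 in Cre-negative libraries, beside Atp6v0d1. Two-sided exact permutation tests on the log2 ratios of the 3 subunits gave p = 0.171, 0.343 and 0.114 (adjusted p = 0.257, 0.343 and 0.257), and 3 against 4 cannot give a p below 0.0571. The counterparts were not called: Atp6v1b2 had a log2 fold change of -0.48 (adjusted p = 0.0997), Atp6v1g1 of -0.03 (0.920), Atp6v1g2 of -0.0016 (0.999) and Atp6v0d1 of -0.28 (0.587). With library total scaling Atp6v1b2 was called, at -0.69 (adjusted p = 0.0284). Atp6v1b2 and Atp6v1g2 overlap genes on the opposite strand.

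Across the whole pump 1 gene was called, and it was a widely used subunit. Of 26 genes of V-ATPase subunits and accessory proteins, 24 were tested, and limma called Atp6v1f, at 5538 ± 161 normalized counts in Cre-positive libraries (SD, n = 3) and 3929 ± 480 in Cre-negative libraries (SD, n = 4). Its log2 fold change of 0.50 (adjusted p = 0.0392) was not called without any single library (0.0519 to 0.114), with library total scaling (0.161), without a filter (0.0564) or with the term for Y-linked expression (0.0610). In the lower direction limma and edgeR called 0 of the list (4 at an unadjusted p under 0.05 in each), and DESeq2 called 2. Over all genes tested limma called 4.66% higher and 9.11% lower, with 17.3% lower at an unadjusted p under 0.05. In the lower direction edgeR called 8.68% of the genes it tested and DESeq2 11.7%. The list's median log2 fold change was -0.14, close to the -0.10 of all genes tested. Of other restricted subunits known from intercalated cells, Atp6v0a4 had 6.3, 18.0 and 10.4 normalized counts in Cre-positive 45, 76 and 80, against 22.6, 44.3, 63.1 and 53.8 in Cre-negative 46, 48, 75 and 77, a log2 fold change of -1.92 that was not called (adjusted p = 0.0596) but was with library total scaling (0.0408), with DESeq2 (0.0117) and with a term for the label number range (0.0380). Atp6v1c2 had 0, 46.1 and 22.8 normalized counts in Cre-positive and 27.6 to 74.4 in Cre-negative libraries, and was not called (-2.02, adjusted p = 0.240). Its value was -0.33 without Cre-positive 45, the library at 0, -3.11 without Cre-positive 76, and -0.92 with edgeR and -0.94 with DESeq2.

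**Figure D3:**
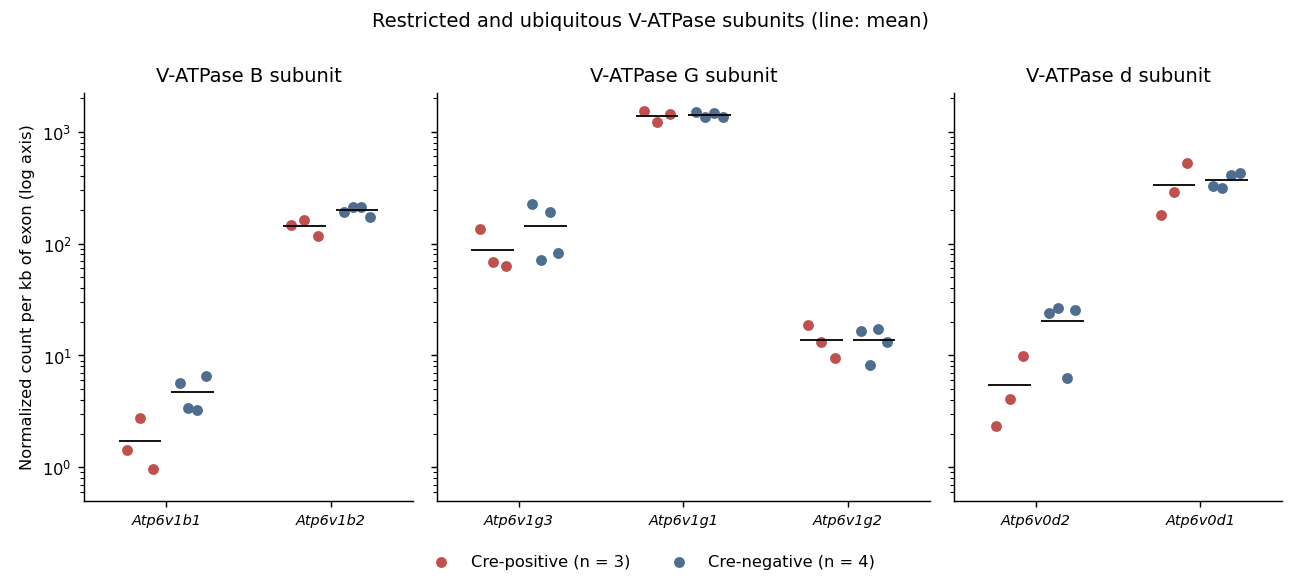
Normalized count per kilobase of exon (vertical axis, log scale) of restricted and ubiquitous forms of the V-ATPase B, G and d subunits; points are libraries, lines group means. Atp6v1b1, Atp6v1g3 and Atp6v0d2 lie below the main form of their subunit in every library of both groups.

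The order of the 8 genes by level per kilobase of exon was led by Atp6v1g3 in both genotypes. In Cre-positive libraries the means were 88.4 normalized counts per kilobase for Atp6v1g3, 69.3 for Ascl3, 47.0 for Cftr, 8.12 for Foxi1, 5.44 for Atp6v0d2, 1.71 for Atp6v1b1, 1.51 for Foxi2 and 1.45 for Bsnd. In Cre-negative libraries they were 142 for Atp6v1g3, 31.3 for Cftr, 25.8 for Foxi1, 20.5 for Atp6v0d2, 9.05 for Foxi2, 6.57 for Ascl3, 5.30 for Bsnd and 4.75 for Atp6v1b1. Neighbours in these orders differed by less than the larger of their SDs over libraries, except Cftr and Foxi1 in Cre-positive libraries and, in Cre-negative libraries, Atp6v1g3 and Cftr, and Atp6v0d2 and Foxi2.

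The library with the highest value differed among the 8 genes. Among Cre-negative libraries, 48 was highest for Foxi1, Ascl3, Cftr and Atp6v0d2, 75 for Foxi2 and Bsnd, 46 for Atp6v1g3 and 77 for Atp6v1b1. Among Cre-positive libraries, 45 was highest for Foxi1 and Atp6v1g3, 76 for Foxi2, Bsnd and Atp6v1b1, and 80 for Ascl3, Cftr and Atp6v0d2. The likeness of patterns was measured as the root mean square difference between log2 values centred on each gene's mean, over the 7 libraries. From Foxi1 this difference was 0.79 for Atp6v1b1 and 0.84 for Atp6v0d2, which ranked 1962 and 2769 when set among the 19147 other genes compared. It was 1.16 for Atp6v1g3 (rank 9979), 1.19 for Cftr (10628), 1.45 for Foxi2 (14644), 2.09 for Bsnd (18217) and 2.87 for Ascl3 (19082). Of the 19147 genes compared, whose means were at least 10.7 normalized counts, Nectin4 (0.18), Akna (0.27), Spink5 (0.27), Frmd4b (0.29) and 4833423E24Rik (0.32) were most like Foxi1. Nectin4 encodes a cell adhesion protein and Spink5 a protease inhibitor of stratified epithelium. These 5 genes shared with Foxi1 a highest value in Cre-negative 48, which follows largely from their choice by likeness over the same libraries. Nectin4 had 83.6, 107.2 and 50.9 normalized counts in Cre-positive 45, 76 and 80, against 210.3, 413.7, 81.1 and 153.0 in Cre-negative 46, 48, 75 and 77.

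Of other transporters and channels that ionocytes and intercalated cells use, several fell in Cre-positive libraries, among them Car2 and Ano1, while Kcnq1 rose. The list of 19, all tested, was chosen with earlier results of these data known. In it 8 were called lower (42.1%) and 2 higher, where 9.11% of all genes were called lower and 4.66% higher, and 11.6% and 2.64% of genes with a mean in the range of the ionocyte genes. Its median log2 fold change was -0.94. Of the 8 lower genes, Aqp6, Slc4a1 and Scnn1b had Cre-positive means of 0, 0.67 and 4.10 normalized counts, under the filter's 5. These genes passed it through Cre-negative means of 14.1, 18.5 and 32.3, so their calls could hardly have gone the other way. The count of lower genes was 3 without Cre-negative 46, 4 without 75 and 2 without 77, and 4, 3 and 5 without Cre-positive 45, 76 and 80. The count of higher genes was 2 without Cre-positive 80 and 1 without any other single library. Car2 and Ano1 were called lower, and Kcnq1 higher, under all 16 alternatives.

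Among the lower genes were enzymes and exchangers of acid and base handling. Car2, the cytosolic carbonic anhydrase that supplies protons and bicarbonate, had 44.9, 59.1 and 131.8 normalized counts in Cre-positive 45, 76 and 80, against 307.6, 190.1, 291.9 and 292.6 in Cre-negative 46, 48, 75 and 77. It fell by 1.90 on the log2 scale (SE 0.37, limma adjusted p = 0.00538). Ano1, a calcium-activated chloride channel, had 36.6, 18.0 and 2.1 in Cre-positive 45, 76 and 80, against 145.0, 165.5, 180.2 and 133.4 in Cre-negative 46, 48, 75 and 77. It fell by 3.58 (SE 0.69, limma adjusted p = 0.00477), with values of -4.35 without Cre-positive 45 and -2.54 without 80. Aqp6, a channel of the acid-secreting intercalated cell, had 0 reads in each Cre-positive library and 14.1 ± 7.68 normalized counts in Cre-negative libraries (SD, n = 4). Against 3 reads over the Cre-positive group it was at least 13.7-fold lower there (adjusted p = 0.0218). The call was lost without Cre-negative 75, without 77 and without each Cre-positive library (0.0513 to 0.0662). Scnn1b, a subunit of the epithelial sodium channel, had 4.10 ± 1.05 normalized counts in Cre-positive and 32.3 ± 10.6 in Cre-negative libraries (-2.67, adjusted p = 0.0208). The Scnn1b call was lost when Cre-negative 46 (0.0740) or 77 (0.0512) was left out.

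Of the next genes Slc4a9, Rhcg and Slc4a1 were named after their values were seen. Slc4a9, the bicarbonate exchanger AE4, had 54.6 ± 40.8 normalized counts in Cre-positive and 158 ± 40.0 in Cre-negative libraries (SD, n = 3 and 4; adjusted p = 0.0353). Rhcg, an ammonia channel, had 7.87 ± 7.97 in Cre-positive and 51.2 ± 26.3 in Cre-negative libraries (adjusted p = 0.0325). Slc4a1, the exchanger AE1, had 1, 1 and 0 reads in Cre-positive 45, 76 and 80, against 18.5 ± 16.4 normalized counts in Cre-negative libraries (adjusted p = 0.0364). Slc9a3r1, a scaffold that binds Cftr, fell by 0.70 on the log2 scale (limma adjusted p = 0.0301). Each of these 4 lost its call in several fits. Slc4a9 lost it without any single library but Cre-positive 80 (0.0544 to 0.0989) with edgeR (0.0730) and with the term for Y-linked expression (0.108), and its log2 fold change of -1.84 was -1.11 without Cre-positive 76. Rhcg lost it when Cre-negative 46, 75 or 77 was left out, and likewise for Cre-positive 45 and 76 (0.0599 to 0.0969), and with edgeR (0.0631), and its log2 fold change of -2.90 was -2.07 without Cre-positive 45 and -3.64 without 80. Slc4a1 lost it without any single library but Cre-negative 48 (0.0544 to 0.116), with a pseudocount of 4 (0.0501) and without a filter (0.0797). Slc9a3r1 lost it when Cre-negative 46, 48 or 77 was left out, and likewise for Cre-positive 76 and 80 (0.0614 to 0.0971), without a filter (0.0544) and with the term for Y-linked expression (0.0733). Slc26a4, the exchanger pendrin, was not called (-0.85, adjusted p = 0.186).

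Kcnq1 and Slc12a7 were higher. Kcnq1, a potassium channel of many epithelia, rose to 388.7 ± 41.1 normalized counts in Cre-positive libraries, against 141.3 ± 39.5 in Cre-negative libraries (SD, n = 3 and 4), a log2 fold change of 1.49 with an SE of 0.28 and a limma adjusted p of 0.00398. It overlaps the antisense gene Kcnq1ot1 and others, so reads of the partners cannot be told apart. Ano1, Rhcg, Scnn1b, Stap1, Atp6v0a4, Atp6v1c2, Trp63 and Dll4 also overlap other annotated genes. So do Aire, Ikzf1, Krt5, Ccl25, Col3a1 and Itgam. Slc12a7, a potassium and chloride cotransporter that was also named after its values were seen, rose by 0.80 (adjusted p = 0.0424), a call that was lost without any single library except Cre-positive 80 (0.0573 to 0.145) with library total scaling (0.129), without a filter (0.0850) and with the term for Y-linked expression (0.0926).

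**Figure D4:**
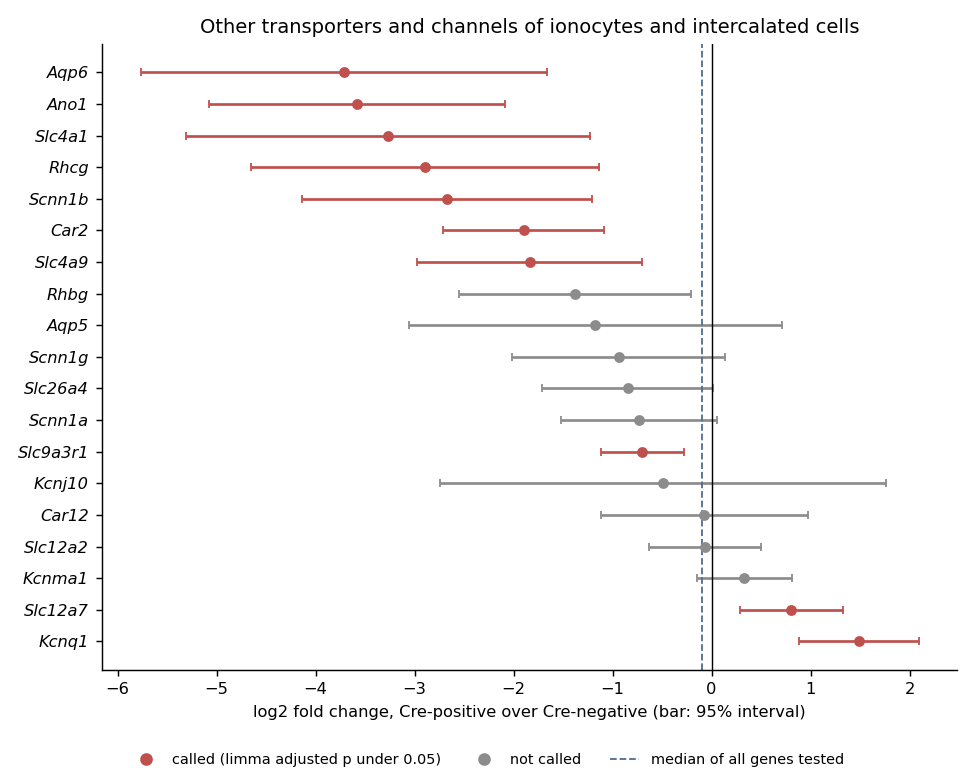
log2 fold change, Cre-positive over Cre-negative (horizontal axis, bars 95% intervals), of the 19 transporters and channels; red marks the 10 called genes, Aqp6 and Slc4a1 having at most 1 read per Cre-positive library and so no interpretable fold, and the dashed line the median of all genes tested, -0.10. The called genes lie left of 0 except Kcnq1 and Slc12a7.

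Markers of tracheal ionocytes outside the 8 genes and factors of epithelial and ionocyte fate held 5 called genes. Of 15 tracheal markers 14 were tested, and limma called 2 lower, Stap1 and Parm1 (14.3%, against 9.11% of all genes tested), and 0 higher (4.66% of all genes). The median log2 fold change was -0.47. At an unadjusted p under 0.05 limma gave 5 of the 14 lower (17.3% of all genes) and 0 higher. DESeq2 called 5 lower (11.7% of all genes) and 0 higher, and edgeR 1 lower (8.68%) and 0 higher. Stap1, an adaptor protein gene, had 17.8, 68.1 and 2.1 normalized counts in Cre-positive 45, 76 and 80, against 179.3, 96.5, 225.2 and 83.7 in Cre-negative 46, 48, 75 and 77, with no overlap and a log2 fold change of -3.09 (limma adjusted p = 0.0260). Its value was -4.15 without Cre-positive 76 and -1.91 without Cre-positive 80, where the call was lost (0.0526), as it was without Cre-negative 46 (0.0733), without 75 (0.0683), with edgeR (0.0797) and with the term for Y-linked expression (0.0575). Parm1 fell by 0.57 on the log2 scale (limma adjusted p = 0.0343), a call lost without any single library except Cre-negative 75 and Cre-positive 80 (0.0616 to 0.127), and with the term for Y-linked expression (0.0702). Of 15 fate factors 13 were tested, with 2 called higher, Trp63 and Hes1, 1 called lower, Dll4 (7.69%), and a median of 0.06, where 4.66% of all genes were called higher and 9.11% lower. Foxi3, the third Foxi gene, was among those too low to test.

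Trp63, a factor of basal epithelial cells, and Hes1, a target of Notch, rose by 0.74 and 0.88 on the log2 scale (limma adjusted p = 0.0362 and 0.0476), and the Notch ligand Dll4 fell by 1.25 on the log2 scale (0.0478). Trp63 lost its call without Cre-negative 46, without 77 and without each Cre-positive library (0.0826 to 0.0883). Hes1, whose groups overlap, lost it without Cre-negative 46, 75 or 77 and without Cre-positive 45 (0.101 to 0.2), where its log2 fold change was 0.54. Dll4 lost it with edgeR (0.0505) and in every fit with 1 library left out, Cre-negative 75 excepted (0.0578 to 0.161). With library total scaling Trp63 (0.118) and Hes1 (0.126) were not called, nor was Hes1 with a pseudocount of 0.5 (0.0513). Dll4 was also not called with that pseudocount (0.0503), without a filter (0.0511), or with the terms for the label number range (0.0589) and Y-linked expression (0.138).

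Markers of other cells that a thymic sort could hold moved with the groups in part, as did markers of mTEC subsets. Of 8 mTEC markers 2 were called higher in Cre-positive libraries, Krt14 (1.51, limma adjusted p = 0.00132) and Krt5 (0.59, adjusted p = 0.0475), both keratins of immature mTECs. Called lower were 2, Cd80 (-1.87, limma adjusted p = 2.5e-04) and Aire, both of mature mTECs. The other 4 were not called and lay above 0, Fezf2 at 0.08, Tnfrsf11a at 0.15, Epcam at 0.39 and Cd74 at 0.42. With 6 markers above 0 and 2 below, the list's median log2 fold change was 0.27. Krt5 was not called with edgeR (0.0615), library total scaling (0.197), no filter (0.0604) or the label number term (0.0523), or in fits leaving out any 1 library but Cre-negative 48 (0.0511 to 0.126). Over all genes tested 4.66% were called higher and 9.11% lower, which is the background for these and the following marker counts. The mTEC list summed to 129218 to 238808 normalized counts in Cre-positive and 83363 to 192446 in Cre-negative libraries, and Cd74 made up 85.2% of it. Of 5 genes listed for cortical thymic epithelium limma called 2 lower in Cre-positive libraries, Foxn1 (-1.02, adjusted p = 0.00236) and Ccl25 (-0.82, adjusted p = 0.0185). Ccl25 was not called without Cre-positive 76 (0.0802) or 80 (0.0673) or with the term for Y-linked expression (0.0508). Ly75 (-0.76, adjusted p = 0.141), Psmb11 (-0.96, 0.178) and Prss16 (-0.50, 0.462) were not called, and all 5 lay below 0. Reads of Foxn1 and Ccl25 were not assigned to cortical cells or mTECs. Of 4 fibroblast markers limma called 2 lower, Col3a1 (-3.94, adjusted p = 0.00350) and Col1a1 (-2.63, adjusted p = 0.0330), while edgeR and DESeq2 called 1, Col3a1. Col1a1, whose groups overlap, was not called with edgeR (-1.76, 0.143), DESeq2 (-1.79, 0.208) or the term for Y-linked expression (0.104), or in fits leaving out Cre-negative 46, Cre-negative 48, Cre-negative 77, Cre-positive 45 or Cre-positive 80 (0.0609 to 0.0906), with a log2 fold change of -1.59 in the last. Dcn, also a fibroblast marker, had 1106 ± 101 normalized counts in Cre-positive and 775 ± 147 in Cre-negative libraries (SD, n = 3 and 4), without overlap, and was not called (0.53, limma adjusted p = 0.0968). The cortical list summed to 6455.5 to 10849.6 normalized counts in Cre-positive and 12916.3 to 16072.2 in Cre-negative libraries, with Ccl25 as 75% of it. The fibroblast list summed to 1017.3 to 1389.0 in Cre-positive and 1011.6 to 1349.4 in Cre-negative libraries, with Dcn as 77.9% of it. Of 7 thymocyte, 4 endothelial and 6 tested tuft markers limma called 0, with 0, 0 and 1 at an unadjusted p under 0.05; edgeR called 0 and DESeq2 1, a tuft marker. In Cre-positive and Cre-negative libraries the thymocyte list summed to 475.3 to 1734.3 and 603.5 to 1168.2 normalized counts, the endothelial list to 283.1 to 366.6 and 311.3 to 419.8, and the tuft list to 742.0 to 1117.6 and 629.5 to 888.2. The part of any of these cells in the results above was not tested.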

How the data were processed

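Gene expression was measured in 7 libraries of sorted mouse mTECs, 3 Cre-positive and 4 Cre-negative. The submitters' processing notes name STAR 2.7.9a, DESeq2 and the build GRCm39; the sources used here give no counting tool and no strand setting. The table the authors deposited holds normalized counts, a signal in which each gene count is divided by its sample's size factor, beside variance-stabilized log2 values, which were not used here, and the authors' log2 fold change, fold, p-value and adjusted p-value. It also holds the GC percent of each gene, per the file headers. Gene coordinates equal those of GENCODE M21 on GRCm38 for 49909 of the 52403 genes in both (95.2%), so positions are given on GRCm38.

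Whole reads were recovered by dividing each value by the worth of 1 read, taken from genes read in a single sample; all values came out whole within 0.051 normalized counts. The 22878 genes whose mean reached 5 normalized counts (32658 were left out) entered a limma 3.58.1 fit of log2(normalized count + 1) on genotype alone, with a trended prior and Benjamini-Hochberg adjustment over all genes tested. Fold changes are differences of mean log values on that scale: the pseudocount shrinks changes of low genes, and 1 library near 0 can push a value past the ratio of the group means. The count tests edgeR 4.0.16 and DESeq2 1.42.0 were run on the recovered reads as alternatives, since the deposited unit is not a raw count, in R 4.3.3. The other alternatives were library total scaling, pseudocounts of 0.5 and 4, other filters, terms for Y-linked expression and for the label number range, and each library left out in turn. The tests were run on simulated reads first. There limma called 14 of 100 genes changed 2-fold and 51 of 100 changed 4-fold, with 11 false calls. For edgeR these numbers were 11, 48 and 2, and for DESeq2 18, 66 and 59. A gene that is not called may therefore still differ. Exon lengths are unions of GENCODE M21 exons. Scripts ran in Python 3.11.15 with pandas 2.3.3 and scipy 1.17.1.

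The ionocyte genes and all lists were chosen with earlier results of these data known. Named genes are the 8 ionocyte genes, their subunit counterparts, Ikzf1, Pou2f3, Aire and Epcam, up to 6 called genes of each list by adjusted p, and the 5 genes most like Foxi1; genes named beyond this rule are marked as such or are markers of other cells. Some genes of the transporter and fate factor lists are not reported here, and the lists were counted without them.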

Additional observations from a re-analysis of the deposited data

Results flagged for a closer look

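In 7 of the 48 genes looked at, 1 Cre-negative library stood far from the other 3, by a gap larger than Dixon's test for 4 values allows. The gaps were taken on normalized counts and not on logs. That test's rate of about 1 in 20 holds for normally distributed values. Low and uneven counts can pass it more often, so no chance rate can be given for these genes. Among the ionocyte genes, Atp6v0d2 was lowest in Cre-negative 75, at 17.1 normalized counts, Bsnd was highest in Cre-negative 75, at 47.7, and Ascl3 was highest in Cre-negative 48, at 16.7. Cre-negative 48 also held the lowest Cre-negative value of Car2 (190.1) and Atp6v1f (3214) and the highest of Slc4a9 (217.7) and Hes1 (1541.5). In 5 of the 7 genes the distant library was thus Cre-negative 48, the library with Y-linked reads.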

How the results depend on the processing

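No paired analysis was possible because the groups share no label number. The 8 ionocyte genes kept the sign of their log2 fold change under every alternative that gave a value; edgeR gave none for Bsnd, nor did the higher filter for Foxi2, Atp6v1b1 and Bsnd, and Bsnd was below the filter without Cre-negative 75. Of the 8, 2 were called by DESeq2 (Atp6v0d2 at -1.92 and Foxi1 at -1.66) and 1 with the term for Y-linked expression (Cftr at 1.2). Leaving out 1 library gave 0 or 1 call. Atp6v0d2, Cftr and Foxi2 were each called in 1 of those fits. Their log2 fold changes were -2.41 to -1.44, 0.50 to 1.16 and -3.35 to -2.06. With no call in any of them, the values were -1.76 to -0.97 for Foxi1 and -2.89 to -1.04 for Bsnd. Likewise without a call, they were -0.94 to -0.32 for Atp6v1g3, 0.93 to 4.4 for Ascl3 and -1.76 to -1.10 for Atp6v1b1. Of all genes 3150 were called, 1066 higher and 2084 lower. The higher count was 583 with library total scaling and 678 with the term for Y-linked expression; leaving out 1 library gave 1990 to 2696 genes, 600 to 1008 higher and 1315 to 1759 lower, with fewest in all without Cre-negative 46. In the V-ATPase list 2 were called lower by DESeq2 and with library total scaling and 1 with the label number term. The count of higher calls became 0 with library total scaling, without a filter and with the Y-linked term, and 2 with the label number term. Leaving out 1 library gave 0 to 1 lower and 0 to 1 higher. The higher call came without Cre-negative 75 and was of a gene other than Atp6v1f, which was not called there (limma adjusted p = 0.0569). In the transporter list 1 gene was higher with library total scaling, without a filter and with the Y-linked term; leaving out 1 library gave 2 to 6 lower and 1 to 2 higher. In the tracheal list 1 was lower with edgeR, 5 with DESeq2 and with library total scaling and 0 with the Y-linked term; leaving out 1 library gave 0 to 3. Among the fate factors the lower count was 0 with edgeR, a pseudocount of 0.5, no filter, the label number term or the Y-linked term and 2 with DESeq2 and library total scaling, and 0 were higher with library total scaling and 1 with a pseudocount of 0.5; leaving out 1 library gave 0 to 2 lower and 0 to 2 higher. Signs turned for Atp6v1g2 (0.012 with the label number term), and without 1 library for Atp6v0d1 (-0.68 to 0.091), Atp6v1g1 (-0.10 to 0.063) and Atp6v1g2 (-0.24 to 0.23), none of them called. The causes were not tested. Low counts limit the estimates of Ascl3, Bsnd, Foxi2 and Atp6v1b1, whose means were under 25 normalized counts. Spread among libraries limits them too: Ascl3 had 117 reads in Cre-positive 80 and 0 in 45, and Bsnd 53 in Cre-negative 75 and 1 in 77.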
